A study of Rattus norvegicus with 12 samples.

Results

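This comparison set uterine tissue that had been injured and then given a patch carrying cells against uninjured uterine tissue, in 3 EEP libraries and 3 normal libraries of the 12 in the series. The members were taken by their labels and count columns, EEP 1, 2 and 3 against normal 1, 2 and 3, with no measured value used. The rats were female and 8 weeks old at surgery, and neither the strain nor the cells printed into the patch are given in the labels. The EEP horns had their lining abraded with a bent needle and 2 days later received the EEP, a bioprinted patch that the design text sets against a control patch without cells. The normal group is labelled only as normal. The remaining 6 libraries came from horns labelled as-induced, called AS here, which were injured with no patch named in their titles, and from horns that received the cell-free control patch, CP, printed from Endo-UdECM. One horn of an animal took the EEP while the opposite horn served as its control or took the CP, and neither the animal behind each library nor the time of harvest is stated. The tissue is labelled endometrium, whereas the design text says uterine tissue, and the replicates are not said to be separate animals, so the spread behind every p-value is that between libraries and may be technical. The question is what still differed from uninjured tissue after the patch.

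The wall of the uterine horn has a lining of simple epithelium with glands, a stroma of fibroblasts and vessels beneath it, and an outer wall of smooth muscle, the myometrium. The lining renews itself after scraping in healthy tissue by proliferation of residual epithelium and stroma, while inflammatory cells clear debris and matrix is laid down and removed. Bulk RNA of such tissue mixes all of these cells, so that fewer cells of a type and less RNA per cell cannot be told apart in any result below.

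The EEP libraries differed far more among themselves than the normal libraries did. Transcripts of the mitochondrial genome took 18.9%, 53.6% and 76.3% of the counts in EEP 1, 2 and 3, against 56.5%, 50.1% and 44.1% in normal 1, 2 and 3. The group means were 49.6% and 50.2%, and the difference of -0.618 percentage points had p = 1 in an exact two-sided permutation test, whose smallest possible p is 0.1. This left 5832552, 2257574 and 1202525 nuclear counts in the EEP libraries, against 3313051, 3695001 and 3683106 in the normal libraries. Long non-coding genes took 0.961%, 1.94% and 2.45% of the nuclear counts in the EEP libraries and 1.02%, 1.14% and 1.07% in the normal libraries, so EEP 2 and EEP 3 lay above the normal range and EEP 1 below it.

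Distance from normal tissue followed the same split. The median absolute log2 difference from the mean of the normal libraries was 0.439 in EEP 1, 0.729 in EEP 2 and 0.834 in EEP 3. Normal 1, 2 and 3, each set against the mean of the other 2, gave 0.376, 0.424 and 0.364. EEP 1 had 474 genes more than 1 log2 unit above the range of the normal libraries and 505 more than 1 below it. The same counts were 1085 and 1616 in EEP 2, and 1486 and 2382 in EEP 3. Set against the range of the other 2, normal 1, 2 and 3 had 475 and 616, 487 and 970, and 462 and 355. A normal library is thus compared with 2 libraries and an EEP library with 3, so the values of the 2 groups are not on equal terms. By these measures EEP 1 lay nearer to normal than EEP 2 and EEP 3 did, and counts of calls and list medians are therefore given with and without it. Nuclear counts fell from EEP 1 to EEP 2 to EEP 3 as the distance rose, and the part of sequencing depth in these distances was not tested.

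**Figure D1:**
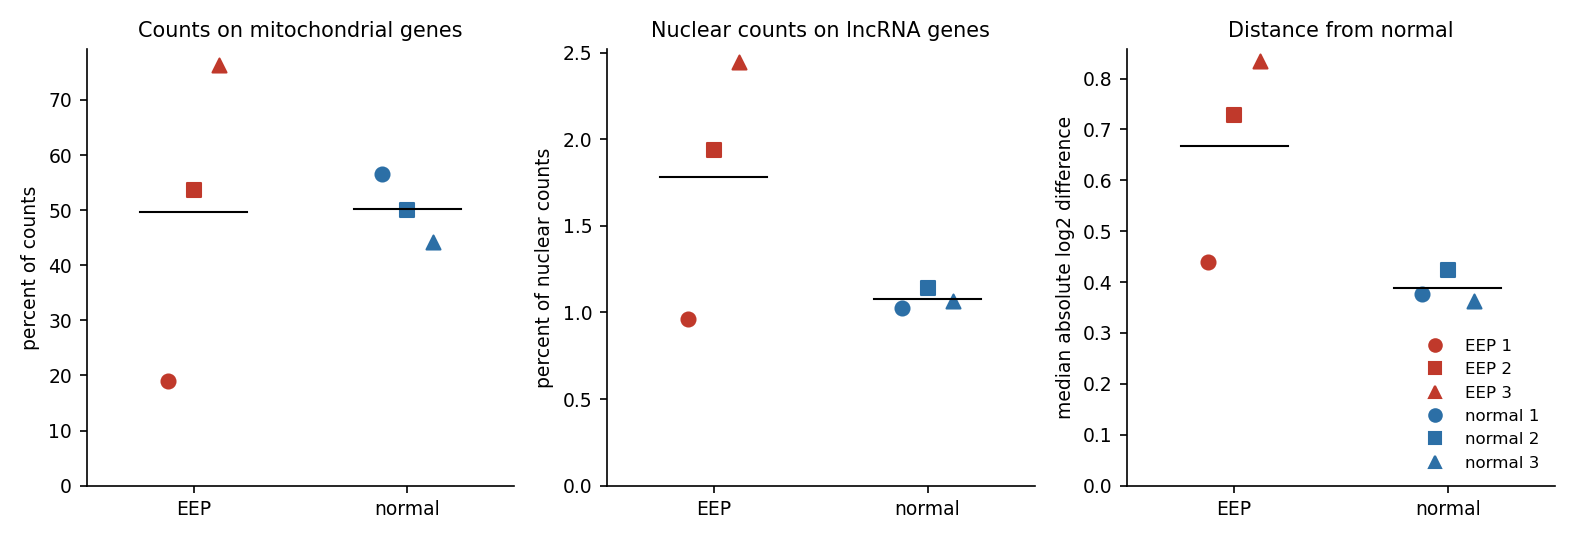
Share of counts on mitochondrial genes, share of nuclear counts on long non-coding genes (both in percent) and median absolute log2 difference from normal tissue, 1 point per library, EEP left and normal right, with the group mean as a line. EEP 1 has the lowest share in both left panels, at 18.9% and 0.961%. Its distance of 0.439 is the smallest of the EEP libraries, while EEP 2 and EEP 3 lie at 0.729 and 0.834. Each normal library is set against the other 2 only.

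With all libraries, edgeR's quasi-likelihood test passed 1 gene of 13909 as higher in EEP tissue (0.00719% of genes tested) and 0 as lower (0%), at an adjusted p under 0.05 by Benjamini-Hochberg over all genes. At an unadjusted p under 0.05, 667 genes were higher (4.8%) and 384 lower (2.76%). The higher share of these, 63.5%, was 42.3% with the mitochondrial share of each library as a covariate. DESeq2 passed 51 higher and 14 lower on the same counts, with Spink5 among them. All 3 EEP libraries lay above all 3 normal libraries for 854 genes (6.14%) and below them for 1174 genes (8.44%). These shares are the background against which the counts of members below are to be read.

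Spink5, which encodes an inhibitor of the serine proteases that shed the surface of stratified epithelia, was the gene that rose. Its level, in TMM-scaled CPM (a gene's counts relative to the scaled total of its library), was 29.6, 38.1 and 41.6 in EEP 1, 2 and 3 and 0.527, 0.3003 and 0.768 in normal 1, 2 and 3. The lowest EEP library was far above the highest normal library, and EEP 1 was no exception. The log2 fold change was 6.05 ± 0.89 (standard error), a 66.2-fold difference, with adjusted p = 0.0489. Spink5 lies on mRatBN7.2 chromosome 18, 36264452 to 36333143, forward strand. The same gene stood at 0, 0 and 0.198 CPM in the AS libraries and 0.251, 4.197 and 8.94 CPM in the CP libraries. The call did not hold under a filter of 5 CPM in 3 libraries (adjusted p = 0.059) or with the mitochondrial genes removed (0.0541), nor without any 1 library other than EEP 1 (0.0992 to 0.513), while the log2 fold change was at least 5.77 under all 14 alternatives.

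The next genes by p-value did not pass with all libraries, and all 4 given here passed without EEP 1 (adjusted p = 0.03 for Krt5, 0.0168 for Lgals7, 0.0128 for Ap3b2 and 0.0018 for Iqcn). Krt5, the keratin of basal cells in stratified epithelium, had 27.4, 17.1 and 10.98 CPM in EEP tissue and 0.105, 0.1001 and 0.192 CPM in normal tissue, with a log2 fold change of 6.95 ± 1.23 (adjusted p = 0.161). Lgals7, a galectin of stratified epithelia, had 16.7, 27.5 and 40.2 CPM in EEP tissue and 0.844, 1.602 and 1.15 CPM in normal tissue (log2 4.52 ± 0.89, adjusted p = 0.161). Neither gene's groups overlapped, in EEP 1 as in the other two EEP libraries. Ap3b2, a subunit of the AP-3 vesicle coat best known from neurons, had 17.1, 26.7 and 36.4 CPM in EEP tissue and 2.003, 4.204 and 2.49 CPM in normal tissue (log2 3.19 ± 0.60, adjusted p = 0.161). Iqcn, a calmodulin-binding IQ motif protein, had 9.399, 346 and 415 CPM in EEP tissue and 0.949, 6.21 and 10.9 CPM in normal tissue (log2 5.40 ± 1.04, adjusted p = 0.161), so that EEP 1 lay within the normal range and the other two far above it.

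On the lower side the smallest p-value belonged to Igfbp7, a secreted protein that binds insulin-like growth factors and is made by stroma and vessels. It had 267, 80.6 and 147 CPM in EEP tissue and 1905, 557 and 2256 CPM in normal tissue, with no overlap although normal 2 was well below the other two normal libraries. Its log2 fold change was -3.25 ± 0.54 (adjusted p = 0.108). Tspan18, a tetraspanin membrane protein, had 18.5, 14.3 and 26.3 CPM in EEP tissue and 75.4, 105 and 54.9 CPM in normal tissue (log2 -2.00 ± 0.37, adjusted p = 0.161). Acsbg1, an acyl-CoA synthetase for long-chain fatty acids, had 3.55, 2.85 and 4.05 CPM in EEP tissue and 24.6, 32.4 and 15.3 CPM in normal tissue (log2 -2.79 ± 0.55, adjusted p = 0.161). Both genes kept the groups apart in every library. Abcb1b, a rodent P-glycoprotein drug transporter, had 6.74, 4.803 and 5.203 CPM in EEP tissue and 112, 4.104 and 229 CPM in normal tissue (log2 -4.35 ± 0.90, adjusted p = 0.184). Orm1, an acute-phase plasma protein, had 1.005, 1.201 and 0 CPM in EEP tissue and 20.8, 139.5 and 32.4 CPM in normal tissue (log2 -6.22 ± 1.29, adjusted p = 0.184). For Abcb1b normal 2 lay below every EEP library, and the difference rests on normal 1 and normal 3. Without EEP 1 all 5 genes passed as lower, with adjusted p = 0.00576 for Igfbp7, 0.0273 for Tspan18, 0.0443 for Acsbg1, 0.0456 for Abcb1b and 0.0493 for Orm1.

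**Figure D2:**
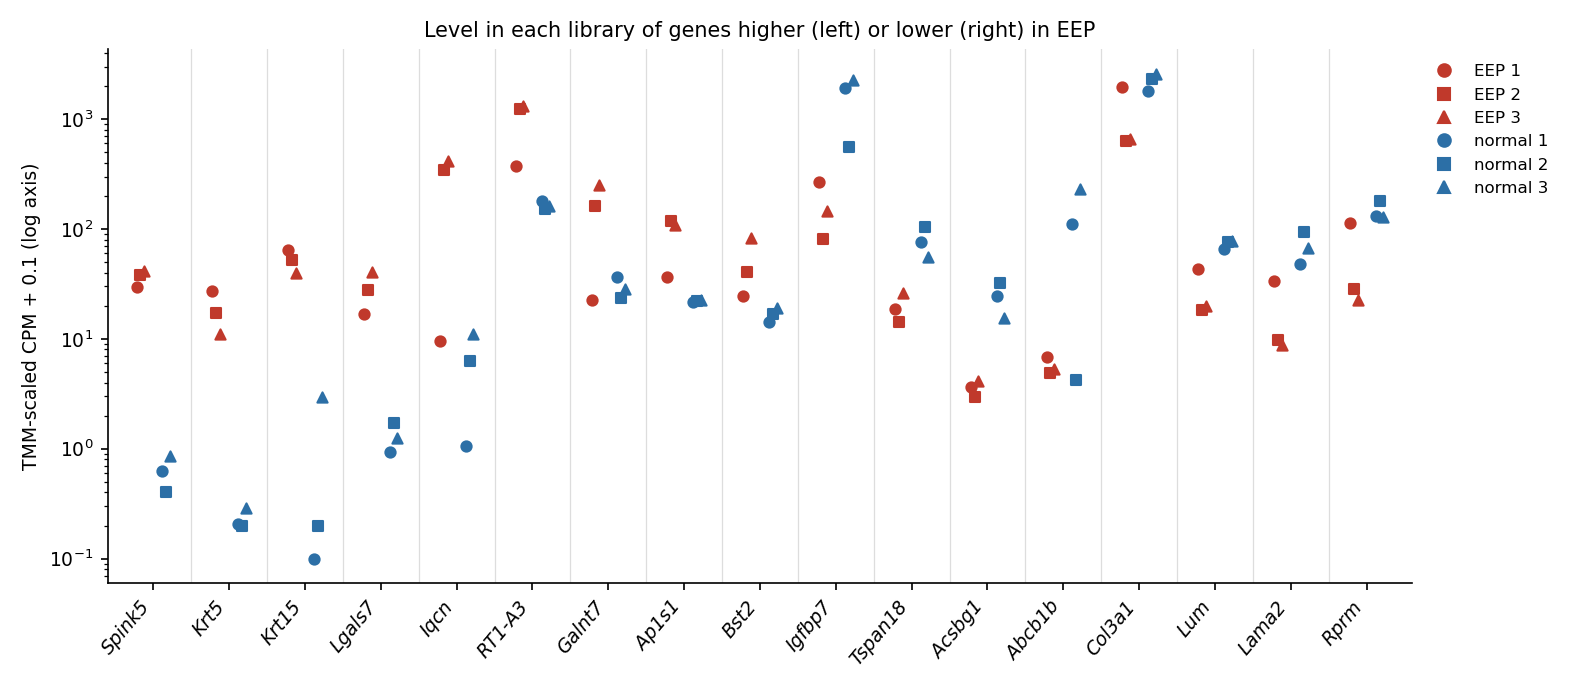
TMM-scaled CPM plus 0.1 (log axis) of 17 genes in each library, EEP points left of normal points for every gene. Spink5, Krt5, Krt15 and Lgals7 are separated in all 3 EEP libraries, whereas Iqcn and Galnt7 are high in EEP 2 and EEP 3 and at the normal level in EEP 1, and Abcb1b has 1 normal library at the EEP level.

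The authors' deposited table compared the same groups and gave a q-value of 0.99999 for all 34034 genes. At an unadjusted p under 0.05, the authors' deposited table held 404 genes higher and 654 lower in EEP tissue. For Spink5 the authors' deposited table gave a fold of 24.3 and p = 0.000212, and for Igfbp7 a fold of 0.105 and p = 0.0558, as ratios of EEP over normal.

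Leaving EEP 1 out changed the count of calls by far more than any other single library. With EEP 2 and EEP 3 against the 3 normal libraries, 150 of 14285 genes rose (1.05%) and 50 fell (0.35%). Unadjusted, 1202 were higher (8.41%) and 1103 lower (7.72%). The count of 200 fell to 6 when EEP 3 was also left out, to 19 without normal 1, and to 10 with the mitochondrial share of each library as a covariate. All 150 and all 50 had the same sign with EEP 1 included, where 145 and 35 had an unadjusted p under 0.05. That fit holds the same EEP 2, EEP 3 and normal libraries that gave the calls, so this overlap is no separate support for them.

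EEP 1 itself gives values that took no part in those calls, but the normal libraries that EEP 1 is set against did. The shares over all genes are therefore not a like background for the called genes. Of the 150 genes that rose without it, EEP 1 lay above all 3 normal libraries for 42 (28%) and below all 3 for 72 (48%). Over all 13909 genes tested, EEP 1 lay above the normal libraries for 27.2% and below them for 29.3%. The median log2 fold change of the 150 was 2.41, and the median difference of EEP 1 from the mean of normal was -0.21. Of the 50 genes that fell without it, EEP 1 lay below all 3 normal libraries for 23 (46%) and above them for 3 (6%), with medians of -2.62 in the fit and -0.48 in EEP 1. EEP 1 was thus below normal for a similar share of the rising and of the falling genes, and the difference of these shares from the background was not tested. The rising genes comprised 120 protein-coding genes, 15 long non-coding genes, 6 mitochondrial tRNA genes, 4 pseudogenes and 5 of other types, while all 50 falling genes were protein-coding. The long non-coding share of the nuclear counts was also higher in EEP 2 and EEP 3 than in EEP 1 and normal tissue, and its part in these calls was not tested.

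**Figure D3:**
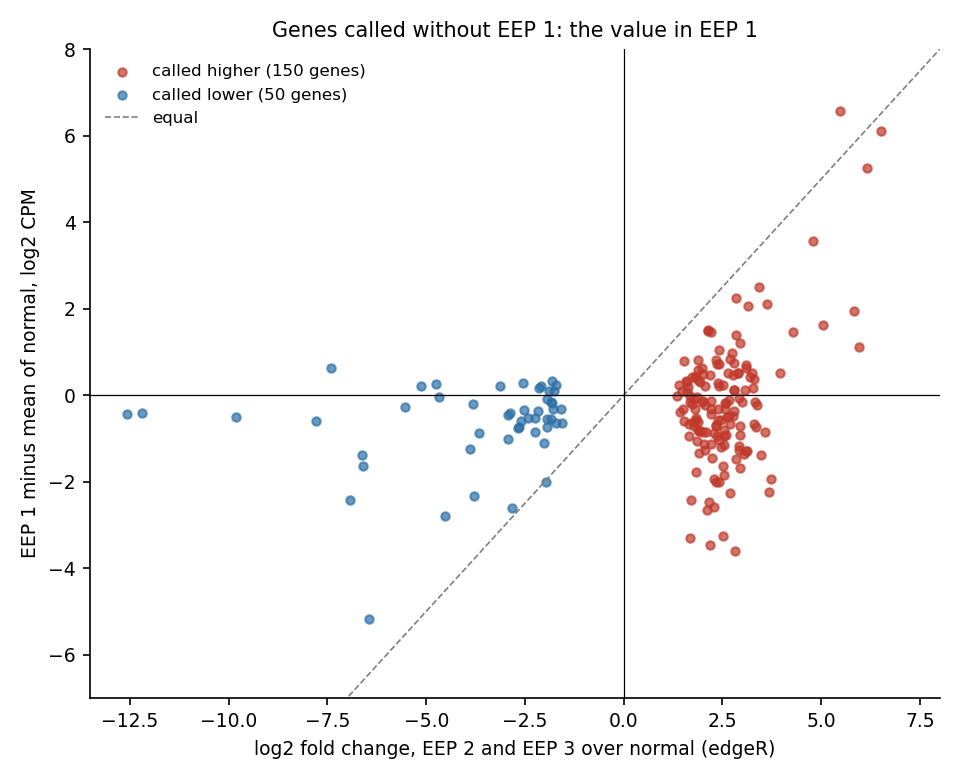
Genes called when EEP 1 was left out, 1 point per gene: log2 fold change of EEP 2 and EEP 3 over normal on the horizontal axis, and the log2 CPM difference of EEP 1 from the mean of normal on the vertical axis, with the line of equal values dashed. A rising gene with a log2 fold change of 8.67 and a difference of 0.904 in EEP 1 lies beyond the right edge and is not drawn. The 150 rising genes centre on -0.21 in EEP 1 and the 50 falling genes on -0.48, and a few points at the upper right, among them Spink5, Krt5 and Krt15, lie near the dashed line.

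Of the 12 genes with the smallest p-values among those that rose, 7 lay below all normal libraries in EEP 1. Galnt7, an enzyme that starts or extends mucin-type sugar chains, had 162 and 249 CPM in EEP 2 and EEP 3 and 36.2, 23.6 and 28.4 CPM in normal tissue, with 22.3 CPM in EEP 1 (log2 2.80 ± 0.35 without EEP 1, adjusted p = 0.00245). The AS libraries had 67.8, 49.1 and 51.8 CPM of Galnt7 and the CP libraries 119, 146 and 134 CPM. Golph3l, a Golgi protein, had 334 and 511 CPM in EEP 2 and EEP 3, 47.1 in EEP 1 and 60.9, 57.7 and 86.4 in normal tissue (log2 2.62 ± 0.37, adjusted p = 0.00576). In both genes EEP 1 lay below every normal library. Dennd3 (log2 2.91 ± 0.38), which activates a Rab GTPase, Klhdc8b (log2 2.54 ± 0.37), a kelch-domain protein, and Aagab (log2 2.35 ± 0.36), which helps assemble clathrin adaptors, were likewise lower in EEP 1 than in any normal library.

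Ap1s1 and RT1-A3 also rose without EEP 1 and were higher in all 3 EEP libraries than in every normal library. Ap1s1, a clathrin adaptor subunit, had 36.2, 119 and 109 CPM in EEP tissue and 21.6, 22.02 and 22.3 CPM in normal tissue, with 78.03, 61.97 and 77.1 CPM in AS and 148, 115 and 209.5 CPM in CP libraries (log2 2.37 ± 0.34 without EEP 1, adjusted p = 0.00576). RT1-A3, a class I gene of the rat major histocompatibility complex, had 375, 1231 and 1312 CPM in EEP tissue and 179, 152 and 160.2 CPM in normal tissue (log2 2.95 ± 0.43, adjusted p = 0.00576). RT1-A3 stood at 399, 633 and 396 CPM in AS and 514, 931 and 1600.3 CPM in CP libraries. Class I genes of this complex are near copies of one another, so reads may have been split among them in counting and the level of any one is uncertain. Iqcn, for which EEP 1 lay within the normal range, passed here (adjusted p = 0.0018), with 30.98, 65.8 and 86.96 CPM in AS and 276, 472 and 386 CPM in CP libraries.

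Nedd9, a scaffold of focal adhesions, had 52.5 and 121 CPM in EEP 2 and EEP 3 and 16.98, 13.4 and 13.1 CPM in normal tissue, with 12.7 in EEP 1 (log2 2.56 ± 0.38, adjusted p = 0.00576). Myo10, the motor of filopodia, had 106 and 191 CPM in EEP 2 and EEP 3 and 20.7, 18.7 and 23.98 CPM in normal tissue, with 22.9 in EEP 1 (log2 2.80 ± 0.42, adjusted p = 0.00576). LOC103692527, a long non-coding gene, had a log2 fold change of 2.24 ± 0.34 (adjusted p = 0.00576), with 8.93 CPM in EEP 1 below the 27.5, 21.9 and 25.3 CPM of normal tissue. For none of the 3 was EEP 1 above all normal libraries. Trnn, the mitochondrial tRNA for asparagine, had 41.4, 150.4 and 812 CPM in EEP tissue and 36.7, 17.3 and 37.99 CPM in normal tissue (log2 3.96 ± 0.60, adjusted p = 0.00576), EEP 3 being far above the other EEP libraries.

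Among the genes that fell, Igfbp7 had the smallest p-value (log2 -3.80 ± 0.57, adjusted p = 0.00576), and it had 386, 339 and 235 CPM in AS and 193, 193 and 149 CPM in CP libraries. Lama2, the laminin chain of muscle and stromal basement membranes, had 33.3, 9.61 and 8.67 CPM in EEP tissue and 48.2, 93.999 and 66.97 CPM in normal tissue (log2 -2.93 ± 0.53, adjusted p = 0.0128), with 13.4, 42.8 and 22.9 CPM in AS and 14.8, 11.4 and 7.99 CPM in CP libraries. Col3a1, the fibrillar collagen of stroma, had 1971, 636 and 652 CPM in EEP tissue and 1801, 2334 and 2597 CPM in normal tissue (log2 -1.81 ± 0.36, adjusted p = 0.0223). Lama2 was low in every EEP library, whereas EEP 1 held as much Col3a1 as normal tissue. Col3a1 stood at 1723, 1314 and 1333 CPM in AS and 844, 740.0 and 845 CPM in CP libraries.

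Ecrg4, a secreted growth regulator, had 30.1, 6.904 and 1.45 CPM in EEP tissue and 63.8, 52.96 and 50.8 CPM in normal tissue (log2 -3.67 ± 0.64, adjusted p = 0.0106). Rprm, a p53 target that arrests the cell cycle, had 113, 28.2 and 22.3 CPM in EEP tissue and 130.2, 178 and 129 CPM in normal tissue (log2 -2.53 ± 0.43, adjusted p = 0.0106). Jmjd8 had 17.5, 7.65 and 5.78 CPM in EEP tissue and 31.002, 32.8 and 31.4 CPM in normal tissue (log2 -2.23 ± 0.43, adjusted p = 0.0179). All 3 were below the normal libraries in every EEP library, EEP 1 being the closest to normal. Sec11a (log2 -2.60 ± 0.43), a catalytic subunit of the signal peptidase, Tmtc2 (log2 -4.76 ± 0.81), Serpinf1 (log2 -2.10 ± 0.42), a secreted inhibitor of vessel growth, Gadd45gip1 (log2 -2.55 ± 0.51), a protein of the mitochondrial ribosome, and RGD1564664 (log2 -1.94 ± 0.40) fell in EEP 2 and EEP 3 but lay within or above the normal range in EEP 1. Fto, an RNA demethylase, held 3 counts in EEP 2 and EEP 3 together against 311 in normal tissue, which is a 35.1-fold lower level with a 95% counting interval of 11.9 to 171, while EEP 1 had 10.8 CPM against 4.75, 15.9 and 10.3 CPM in normal tissue.

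Gene lists for the cell types, matrix, signals and metabolism of this tissue give the wider picture. No list held a called gene with all libraries except the stratified epithelium list, through Spink5. The median log2 fold change over all genes tested was -0.01 with all libraries and -0.08 without EEP 1. Medians are compared here for lists with at least 6 members tested that make up at least 75% of the list, since a list with many members too low to test keeps those that are high in 1 group. Farthest above the median of all genes were mitochondrial tRNA (1.46), interferon-stimulated (1.29) and chemokine and cytokine genes (0.99), and without EEP 1 these medians were 1.79, 1.25 and 0.87. Farthest below it were smooth muscle (-0.85), nuclear respiratory chain (-0.70) and cytosolic ribosomal protein genes (-0.68), and without EEP 1 these were -0.99, -1.05 and -0.91. The luminal epithelium list changed sign with EEP 1, at 0.36 with it and -0.88 without it. Lists were chosen with results of these data known, and genes of a list are not independent, so counts and medians are given as descriptions.

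**Figure D4:**
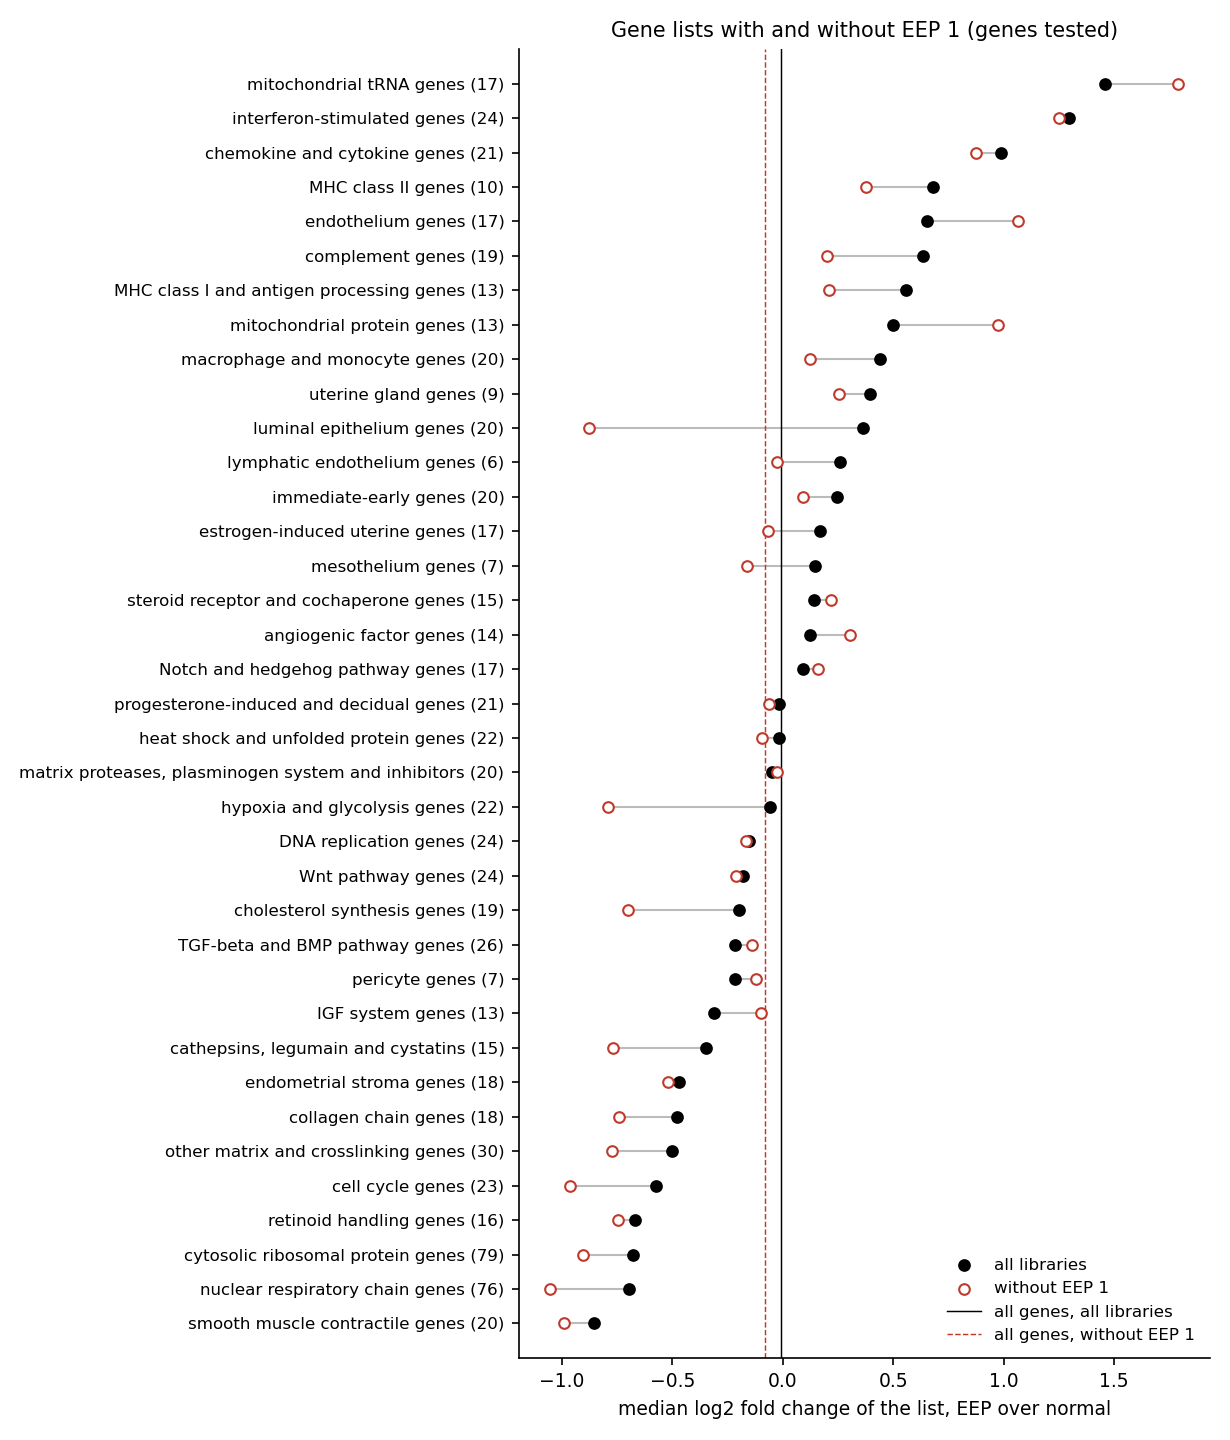
Median log2 fold change, EEP over normal, of each gene list with at least 6 tested genes and at least 75% of its members tested, filled points with all libraries and open points without EEP 1, and vertical lines at the median of all genes. Interferon-stimulated genes (1.29 with and 1.25 without EEP 1) lie toward the right, smooth muscle genes (-0.85 and -0.99) toward the left, and luminal epithelium genes stand at 0.36 with EEP 1 and -0.88 without it.

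Smooth muscle contractile genes were lower in EEP tissue as a set of values. Of 20 tested, 18 had a negative log2 fold change, 8 with an unadjusted p under 0.05 (2.76% of all genes were lower at that level), and for 13 all 3 EEP libraries lay below all 3 normal libraries (8.44% of all genes). Their summed level was 4783, 4149 and 2682 CPM in EEP tissue and 6992, 8073 and 6478 CPM in normal tissue, with no overlap. EEP 1 took part in this difference, unlike in most of the genes called without it. The mean log2 level of the list, set against the mean of normal tissue, was -0.72, -0.74 and -1.33 in EEP 1, 2 and 3.

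Among single members, Mylk, the kinase that switches on smooth muscle myosin, had 527, 457 and 369 CPM in EEP tissue and 889, 1281 and 732 CPM in normal tissue (log2 -1.10 ± 0.34, adjusted p = 0.497). Ppp1r12b, a subunit of the phosphatase that switches it off, had 44.9, 86.5 and 51.2 CPM in EEP tissue and 134, 184 and 126 CPM in normal tissue (log2 -1.28 ± 0.38, adjusted p = 0.467). Tpm2, a tropomyosin of the thin filament, had 266, 318 and 179 CPM in EEP tissue and 589, 704 and 512 CPM in normal tissue (log2 -1.24 ± 0.41, adjusted p = 0.535), and Kcnmb1, a subunit of the potassium channel that relaxes the muscle, had log2 -1.30 ± 0.41 (adjusted p = 0.497). None of these passed with all libraries. Myl9, the regulatory light chain, named after its values were seen, was the member that passed without EEP 1 (log2 -1.95 ± 0.43, adjusted p = 0.0333), at 241, 105 and 78.04 CPM in EEP tissue and 331, 416 and 313 CPM in normal tissue. The summed level shows smooth muscle transcripts in every library, although the tissue is labelled endometrium.

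Matrix genes of the stroma showed lower values that were larger in EEP 2 and EEP 3. Of 18 collagen chains, 15 had a negative log2 fold change with all libraries (median -0.48, 4 with an unadjusted p under 0.05), and 16 without EEP 1 (median -0.74, 8 with an unadjusted p under 0.05). Over all genes, 2.76% were lower at that level with all libraries and 7.72% without EEP 1. The summed collagen level was 10904, 6834 and 3919 CPM in EEP tissue and 9639.8, 12789 and 11647 CPM in normal tissue, with EEP 1 inside the normal range. Col5a2, which sets fibril diameter, had 166, 90.5 and 68.5 CPM in EEP tissue and 213, 265 and 297 CPM in normal tissue (log2 -1.25 ± 0.41, adjusted p = 0.535). Of 30 other matrix and crosslinking genes, 23 were lower (median -0.50, and -0.77 without EEP 1). For 11 every EEP library lay below every normal library, against 8.44% of all genes. Without EEP 1, Lum (log2 -1.95 ± 0.41, adjusted p = 0.0269), Lama2 and, chosen after their values were seen, Dcn (log2 -1.81 ± 0.43, adjusted p = 0.0479) and Lamb1 (log2 -1.72 ± 0.41, adjusted p = 0.0493) fell. Lum and Dcn encode small proteoglycans that space collagen fibrils.

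Lum had 43.3, 18.01 and 19.9 CPM in EEP tissue and 65.3, 76.3 and 77.7 CPM in normal tissue, and did not overlap. Nid1 and Nid2, the nidogens that join laminin to collagen IV in basement membranes, had 61.95, 65.4 and 45.4 and 5.202, 7.81 and 3.18 CPM in EEP tissue, against 116, 141 and 114 and 18.98, 17.1 and 24.8 CPM in normal tissue. Both were below normal in all 3 EEP libraries, at log2 -1.10 ± 0.35 for Nid1 (adjusted p = 0.497) and -1.90 ± 0.59 for Nid2 (adjusted p = 0.497). Of 18 endometrial stroma genes, 13 were lower (median -0.47, and -0.52 without EEP 1). Thy1, a surface glycoprotein of fibroblasts, had 6.798, 3.903 and 0.867 CPM in EEP tissue and 33.1, 26.4 and 13.5 CPM in normal tissue (log2 -2.59 ± 0.85, adjusted p = 0.522).

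The proteases that act on this matrix were mixed, with 9 of 20 higher and a median of -0.05 (-0.03 without EEP 1). Mmp14, the membrane collagenase, had 139.8, 1242 and 1328 CPM in EEP tissue and 221, 251 and 309 CPM in normal tissue, and it rose without EEP 1 (log2 2.29 ± 0.47, adjusted p = 0.0232), EEP 1 being below all normal libraries. Mmp14 stood at 147, 412 and 548 CPM in AS and 501, 805 and 1128 CPM in CP libraries. F3, tissue factor, which starts blood clotting, had 107, 95.8 and 32.7 CPM in EEP tissue and 458, 75.9 and 575 CPM in normal tissue (log2 -2.23 ± 0.60, adjusted p = 0.443), and normal 2 lay among the EEP libraries. Plau, the urokinase plasminogen activator, had log2 -1.53 ± 0.46 (adjusted p = 0.467).

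Epithelial genes divided by type. Of the 22 stratified epithelium genes, 11 passed the filter on low counts, and a member could pass through its EEP level alone, so no count over those that passed is used. The summed level of all 22 was 296, 164 and 128 CPM in EEP tissue and 75.2, 40.04 and 82.3 CPM in normal tissue, without overlap, and EEP 1 was the highest. Krt15, a keratin of basal cells, had 64.7, 52.2 and 39.3 CPM in EEP tissue and 0, 0.1001 and 2.88 CPM in normal tissue, and it rose without EEP 1 (log2 5.47 ± 1.32, adjusted p = 0.049), as did Krt5 (adjusted p = 0.03) and Spink5. Krt13, a keratin of the layers above, held 170 counts in EEP tissue and 0 in normal tissue, which is at least 62.7-fold higher when 3 counts over the group are taken as the floor (adjusted p = 0.464).

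Krt14, the partner of Krt5 and named after its values were seen, had 11.8, 3.602 and 5.203 CPM in EEP tissue and 0.316, 0.1001 and 0 CPM in normal tissue (log2 5.50 ± 1.64, adjusted p = 0.467). Among members under the filter, chosen after their values were seen, Tp63, the transcription factor that defines basal cells, held 9 counts in EEP tissue and 0 in normal tissue, and Dsc3 and Sprr1b were at 0 in both groups. Not all members were higher. Krt10, a keratin of layers above the basal one, had 5.202, 1.501 and 1.73 CPM in EEP tissue and 4.22, 11.7 and 4.89 CPM in normal tissue, with log2 -1.25 with all libraries and -2.10 without EEP 1 (adjusted p = 0.29). Krt1, its partner and too low to test, held 12 counts in EEP tissue and 17 in normal tissue. Without EEP 1 the log2 fold change was also negative for Perp (-1.21), Sprr1a (-1.50) and Sfn (-0.97), and these were positive with it, at 0.03, 0.67 and 1.77; all 5 are named after their values were seen and none passed. In AS libraries Krt5 stood at 0, 0 and 0 CPM and Krt15 at 8.71, 0.192 and 0.198 CPM, and in CP libraries at 0, 8.897 and 5.33 and 4.78, 17.5 and 22.3 CPM. The part of stratified epithelium carried along in the samples, or of the cells in the patch, in these levels was not tested, since no label gives where along the horn tissue was taken or what cells the patch held.

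Genes of the simple epithelium of the uterine lining were highest in EEP 1. The summed level of the luminal epithelium list was 1822, 475 and 338 CPM in EEP tissue and 779, 337 and 900.1 CPM in normal tissue, so that EEP 1 lay above and EEP 2 and EEP 3 within or at the lower end of the normal range. With all libraries 12 of 20 genes were higher, and without EEP 1 only 5. Muc1, the mucin of the luminal surface, had 34.9, 10.1 and 5.49 CPM in EEP tissue and 3.37, 2.002 and 6.04 CPM in normal tissue (log2 2.16 ± 0.78, adjusted p = 0.555, and 1.03 without EEP 1). Sox9, a transcription factor of gland epithelium, had 55.9, 53.7 and 28.04 CPM in EEP tissue and 15.8, 1.201 and 18.4 CPM in normal tissue, with no overlap (log2 1.96 ± 0.70, adjusted p = 0.555).

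The simple keratins, given as examples after their values were seen, show the same split. Krt8 had 324, 14.3 and 16.2 CPM in EEP tissue and 77.7, 16.9 and 90.4 CPM in normal tissue, and Krt19 had 285, 24.02 and 22.5 CPM in EEP tissue and 39.2, 8.41 and 81.7 CPM in normal tissue. In normal tissue the epithelial level was itself uneven, normal 2 being lowest for both keratins. The groups overlap for both keratins and for the summed list.

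Interferon-stimulated genes had higher values in EEP tissue across the list. Type I and II interferons act through STAT and IRF proteins on short promoter elements, and the genes so induced restrict viruses and raise antigen presentation. All 24 tested members had a positive log2 fold change (median 1.29), 11 with an unadjusted p under 0.05 against 4.8% of all genes, and 6 did not overlap against 6.14%. Without EEP 1, 23 of 24 were positive (median 1.25) and 1 passed, against 1.05% of all genes. The summed level was 898, 546 and 1582 CPM in EEP tissue and 502, 494 and 548 CPM in normal tissue, so that EEP 2 lay at the top of the normal range and the difference rests on EEP 1 and EEP 3.

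Bst2, tetherin, which holds budding virus at the cell surface, was the member that passed without EEP 1 (log2 1.88 ± 0.42, adjusted p = 0.037), with 24.7, 40.4 and 82.1 CPM in EEP tissue, 14.1, 16.6 and 18.8 CPM in normal tissue, 18.4, 42.6 and 38.1 CPM in AS and 48.5, 53.05 and 80.5 CPM in CP libraries. Oas2, a sensor of double-stranded RNA, had 8.69, 15.5 and 22.3 CPM in EEP tissue and 1.79, 5.11 and 3.74 CPM in normal tissue (log2 2.11 ± 0.63, adjusted p = 0.468). Ifit2, which blocks translation of viral RNA, had 8.51, 11.6 and 41.3 CPM in EEP tissue and 3.48, 4.305 and 7.87 CPM in normal tissue (log2 1.95 ± 0.63, adjusted p = 0.512). Bst2, Oas2 and Ifit2 did not overlap between the groups. Ifi44 had 25.7, 47.7 and 113 CPM in EEP tissue and 16.9, 23.1 and 28.5 CPM in normal tissue (log2 1.43 ± 0.49, adjusted p = 0.547), with EEP 1 inside the normal range.

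The element that interferon-activated factors bind was looked for in the promoters of these genes. RefSeq promoter windows of 300 bases (250 before to 50 after the start, build GRCr8) were matched by symbol for 15 of the 24 tested members, and 11 of the 15 (73.3%) held GAAANNGAAA on one strand or the other, against 3.92% of 33469 rat promoters. The stretches around the match in 5 members are shown because they carry that element, in capitals, and overlapping matches run together.
Bst2 (chr16:18255058-18255123, reverse strand): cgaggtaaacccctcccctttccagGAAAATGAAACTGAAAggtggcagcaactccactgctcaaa
Oas1a (chr12:41330400-41330465, forward strand): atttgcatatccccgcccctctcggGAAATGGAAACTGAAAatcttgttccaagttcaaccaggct
Ifi44 (chr2:243303791-243303891, reverse strand): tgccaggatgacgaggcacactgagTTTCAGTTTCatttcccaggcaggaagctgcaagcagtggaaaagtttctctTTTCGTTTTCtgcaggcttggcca
Irf7 (chr1:205800058-205800117, reverse strand): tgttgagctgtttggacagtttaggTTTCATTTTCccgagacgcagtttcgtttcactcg
Gbp5 (chr2:233910918-233910977, forward strand): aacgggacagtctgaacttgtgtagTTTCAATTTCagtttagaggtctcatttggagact
Where the capitals read TTTC the element lies on the strand opposite to the gene. A match describes the letters of the window and shows neither binding nor a cause of the levels. Of the genes shown for their promoters and not yet given, all named after their values were seen, Irf7, the factor that amplifies the response, had 32.1, 7.81 and 57.5 CPM in EEP tissue and 9.07, 9.51 and 17.5 CPM in normal tissue, Gbp5 had 4.08, 5.704 and 20.2 CPM in EEP tissue and 1.898, 3.103 and 4.32 CPM in normal tissue, and Oas1a had 9.22, 4.35 and 11.6 CPM in EEP tissue and 5.48, 3.504 and 5.56 CPM in normal tissue. EEP 2 lay below every normal library for Irf7 and above every one for Gbp5. A CArG box, the element of serum response factor, was found in 0 of 15 matched promoters of the smooth muscle list, against 1.64% of all promoters, which says only that these letters are not in those windows.

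Antigen presentation genes lay in the same direction with smaller values. Of 13 tested class I and antigen processing genes, 11 were higher with all libraries (median 0.56) and 8 without EEP 1 (median 0.21). RT1-A1, a classical class I gene, had 16.6, 37.97 and 58.1 CPM in EEP tissue and 14.1, 12.5 and 9.21 CPM in normal tissue and rose without EEP 1 (log2 1.99 ± 0.42, adjusted p = 0.0265), with the same uncertainty of counting as RT1-A3. Psmb9, a subunit of the immunoproteasome, had 79.3, 25.4 and 56.6 CPM in EEP tissue and 24.99, 29.8 and 29.5 CPM in normal tissue (log2 0.94 ± 0.39, adjusted p = 0.629, and 0.53 without EEP 1), with EEP 2 inside the normal range. All 10 tested class II genes were higher with all libraries (median 0.68) and 8 without EEP 1 (median 0.38), and their summed level was 794, 316 and 506 CPM in EEP tissue and 321, 297 and 374 CPM in normal tissue, which overlap.

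**Figure D5:**
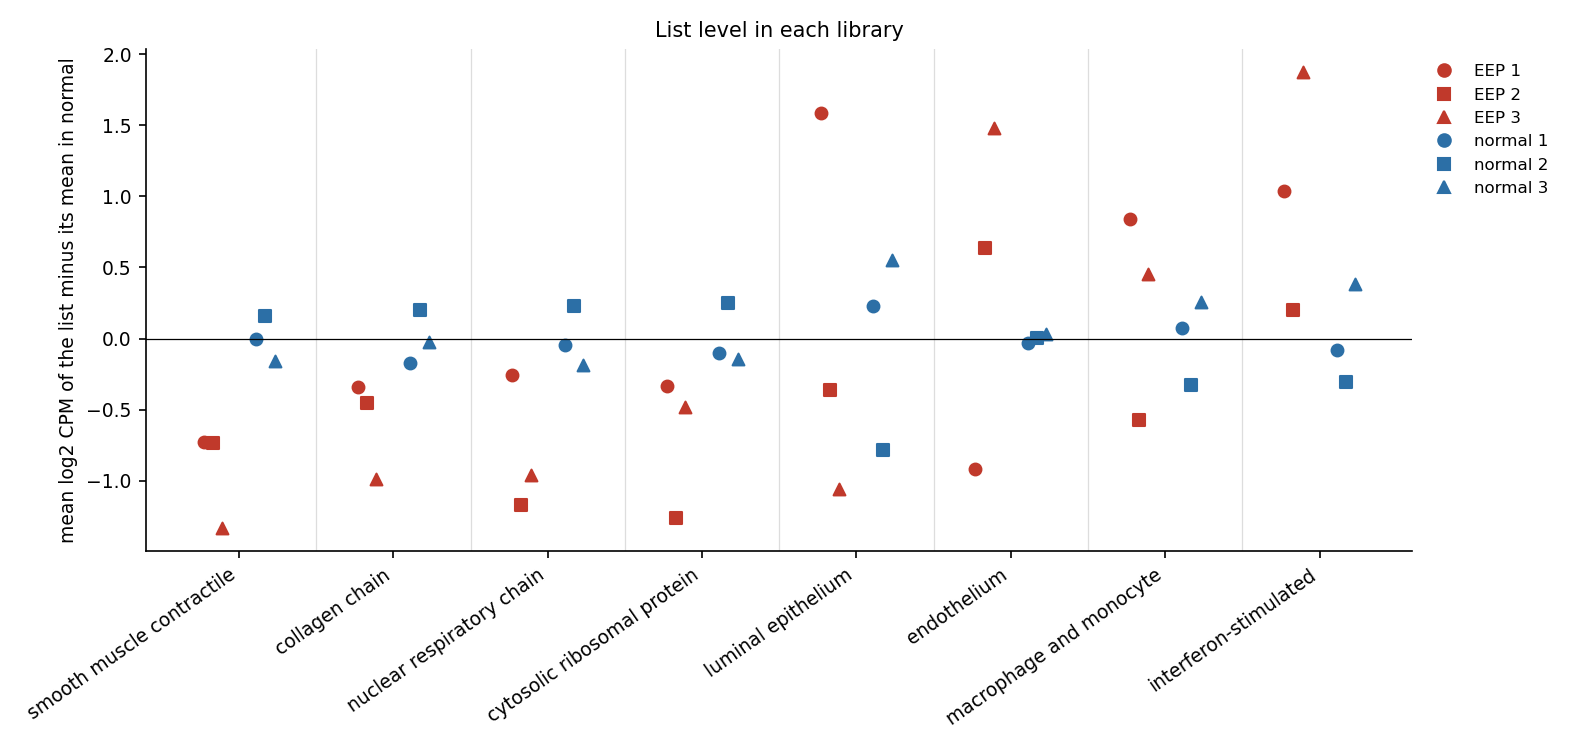
Mean log2 CPM of the tested genes of 8 lists in each library, set to 0 at the mean of the normal libraries, EEP points left of normal points. The EEP libraries lie below the normal libraries in smooth muscle genes (-0.72, -0.74 and -1.33), while EEP 1 parts from EEP 2 and EEP 3 in luminal epithelium and endothelium genes.

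Summed levels of macrophage, neutrophil and T and NK cell markers overlapped between the groups, and those of B and plasma cell markers did not. Of 20 macrophage and monocyte genes, 17 were higher with all libraries (median 0.44) but 10 without EEP 1 (median 0.12), and their summed level was 1053, 405 and 888 CPM in EEP tissue and 548, 435 and 580.0 CPM in normal tissue. No member had an unadjusted p under 0.05. Among 12 neutrophil genes, 6 were tested, Mpo and Elane were at 0 in both groups, and the summed level was 356, 56.6 and 109.8 CPM in EEP tissue and 32.8, 24.5 and 85.1 CPM in normal tissue. Most of the EEP 1 value came from Retnlg, a resistin-like protein of neutrophils, at 323, 18.5 and 48.6 CPM in EEP tissue and 17.6, 10.4 and 38.8 CPM in normal tissue (log2 2.55 ± 0.97, adjusted p = 0.595, and 0.57 without EEP 1). S100a9, a calcium-binding protein of neutrophils and monocytes, had 6.92, 12.5 and 28.3 CPM in EEP tissue and 3.27, 5.11 and 7.68 CPM in normal tissue (log2 1.55 ± 0.59, adjusted p = 0.595).

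The B and plasma cell list summed to 6.92, 7.65 and 25.4 CPM in EEP tissue and 4.11, 2.002 and 4.51 CPM in normal tissue, with 2 of its 9 members in the table high enough to test and neither passing. The low median of the 12 tested of 18 T and NK cell genes, -1.45 with all libraries and -2.44 without EEP 1, rested on normal 1, without which it was 0.32. Their summed level was 69.7, 44.4 and 59.3 CPM in EEP tissue and 269.8, 39.3 and 34.8 CPM in normal tissue. Cd2, an adhesion receptor of T cells, had 0.709, 0.7505 and 2.02 CPM in EEP tissue and 30.4, 0.601 and 0.576 CPM in normal tissue, and its log2 fold change of -3.25 became 0.91 without normal 1. Of the 12 tested genes, 10 had a negative log2 fold change with all libraries and 2, Cd4 and Gzmm, a positive one. Cd8a had 1.54, 4.35 and 5.203 CPM in EEP tissue and 37.2, 12.1 and 2.97 CPM in normal tissue, normal 3 lying among the EEP libraries. The log2 fold change of Cd8a was -2.28 (adjusted p = 0.632). It ranged from -2.78 to -1.07 over 14 alternatives, so it stayed negative without normal 1. Cd4 and Gzmm, a granule protease, were higher in every EEP library than in every normal library, at 21.8, 24.6 and 24.3 and 10.7, 3.602 and 8.38 CPM in EEP tissue and 15.7, 8.91 and 13.4 and 0.844, 2.102 and 1.82 CPM in normal tissue (adjusted p = 0.633 and 0.534). No mast cell or eosinophil gene passed the filter with all libraries, the 11 members in the table holding 58 counts in EEP tissue and 83 in normal tissue.

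Of 21 chemokine and cytokine genes, 18 were higher with all libraries (median 0.99), 5 with an unadjusted p under 0.05 against 4.8% of all genes. Without EEP 1 the median was 0.87. Cxcl9, which draws T cells and is induced by interferon gamma, had 1.24, 8.11 and 32.7 CPM in EEP tissue and 1.79, 3.604 and 2.69 CPM in normal tissue (log2 2.34 ± 1.02, adjusted p = 0.633). Cxcl11, another ligand of the same receptor, held 34 counts in EEP tissue and 2 in normal tissue, an 18.8-fold higher level with a 95% counting interval of 4.82 to 161. For Cxcl9, EEP 1 lay below every normal library. For Cxcl11, EEP 1 had 0.296 CPM, above the 0.105, 0 and 0.0959 CPM of normal tissue. Spp1, osteopontin, ran the other way at 12.001, 10.4 and 20.2 CPM in EEP tissue and 322, 17.6 and 367 CPM in normal tissue (log2 -4.07 ± 0.94, adjusted p = 0.311), with normal 2 next to the EEP libraries. Of 19 complement genes 16 were higher with all libraries (median 0.63) and 10 without EEP 1 (median 0.20). C4b, a core component of the classical pathway, had 25.1, 15.01 and 43.6 CPM in EEP tissue and 8.33, 6.81 and 10.2 CPM in normal tissue (log2 1.72 ± 0.57, adjusted p = 0.533).

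Vessel and blood genes had higher summed levels in EEP 2 and EEP 3 than in normal tissue. Of 17 endothelium genes, 16 were higher both with all libraries (median 0.65) and without EEP 1 (median 1.07, 7 with an unadjusted p under 0.05 against 8.41% of all genes). Their summed level was 99.8, 272 and 554 CPM in EEP tissue and 187, 180.5 and 175 CPM in normal tissue, so that EEP 1 lay below every normal library. Flt1, a receptor for vascular endothelial growth factors, had 23.8, 46.7 and 41.6 CPM in EEP tissue and 18.2, 19.8 and 16.02 CPM in normal tissue, with no overlap (log2 1.05 ± 0.38, adjusted p = 0.555). Hemoglobin and other erythrocyte genes summed to 307, 464 and 842 CPM in EEP tissue and 208, 236 and 287 CPM in normal tissue, above normal in every EEP library. Hemoglobin genes are near copies of one another, and the share of reads given to each is uncertain.

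Genes of energy metabolism and translation were lower across their lists. Of 76 nuclear genes of the respiratory chain, 73 were lower (median -0.70), 17 with an unadjusted p under 0.05 against 2.76% of all genes, and 34 lay below normal in every EEP library against 8.44%. Without EEP 1 the median was -1.05, 49 had an unadjusted p under 0.05 against 7.72%, and 3 fell against 0.35%. The 3 were Uqcrc2, a core subunit of complex III (log2 -1.85 ± 0.41, adjusted p = 0.0337), Atp5mc3, a subunit of the ATP synthase ring (log2 -1.56 ± 0.37, adjusted p = 0.0456), and, chosen after its values were seen, Sdha, the flavoprotein of complex II (log2 -2.41 ± 0.52, adjusted p = 0.0285). Uqcrc2 had 33.05, 14.3 and 12.7 CPM in EEP tissue and 49.1, 54.7 and 41.9 CPM in normal tissue, and Atp5mc3 had 443, 213 and 266 CPM in EEP tissue and 643, 903 and 559 CPM in normal tissue. In both genes EEP 1 was below every normal library but nearer to them than the other two.

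The 79 cytosolic ribosomal protein genes included 78 with a negative log2 fold change (median -0.68). Of these, 21 had an unadjusted p under 0.05 against 2.76% of all genes, and 42 did not overlap against 8.44%. Their summed level was 33518, 19221 and 30588 CPM in EEP tissue and 38374, 50104 and 37453 CPM in normal tissue. Rpl7a had 320.5, 140.3 and 197 CPM in EEP tissue and 479, 579 and 389.7 CPM in normal tissue (log2 -1.14 ± 0.40, adjusted p = 0.555). No ribosomal protein gene passed with or without EEP 1, and processed pseudogenes of these genes can take some of their reads.

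Of the 13 protein genes of the mitochondrial genome itself, 12 were higher with a median of 0.50, and 0.97 without EEP 1. With all libraries none had an unadjusted p under 0.05 or groups without overlap, and the median ranged from -0.45 to 0.97 over the alternatives. Their summed level was 48411, 192037 and 500690.0 CPM in EEP tissue and 224653, 156405 and 126979 CPM in normal tissue, so EEP 1 was far below and EEP 3 far above the normal libraries. In EEP 1 the mean log2 level, set against normal, was below 0 for these genes (-1.88) and for the nuclear respiratory chain genes (-0.25) alike. CPM here is scaled by TMM factors, which removes part of the effect of these abundant transcripts on the rest. All 17 tested mitochondrial tRNA genes, of 22 listed, were higher, 8 with an unadjusted p under 0.05 against 4.8% of all genes, and 6 rose without EEP 1 against 1.05%. The summed level of this list was 119, 407 and 1386 CPM in EEP tissue and 115, 74.9 and 145 CPM in normal tissue. EEP 1 thus lay inside the normal range, and EEP 3 was far above the other libraries. The median of 1.46 became 0.91 once each library's mitochondrial share was added to the fit. The tRNA genes lie between the protein genes on the same long transcripts, so reads of a neighbor counted to a tRNA gene cannot be told apart from tRNA.

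The median was -0.31 for IGF system genes, -0.22 for TGF-beta and BMP pathway genes and 0.17 for estrogen-induced genes, and without EEP 1 it was -0.10, -0.14 and -0.06. In the IGF system, Igfbp2 had 85.6, 104 and 60.1 CPM in EEP tissue and 21.5, 13.7 and 16.4 CPM in normal tissue, with no overlap, opposite in direction to Igfbp7 (log2 2.27 ± 0.63, adjusted p = 0.453). Igfbp1, which in humans is a product of decidual stroma, had 36.5, 0 and 0 CPM in EEP tissue and 199.8, 3.804 and 149 CPM in normal tissue. It fell without EEP 1 (adjusted p = 0.0232), since EEP 2 and EEP 3 held 0 counts against 3491 in normal tissue, at least 394-fold lower. Normal 2 held almost none of it either. Aqp8, a water channel, followed the same pattern, with 17.9, 0 and 0 CPM in EEP tissue and 120.4, 0.501 and 149 CPM in normal tissue, at least 305-fold lower in EEP 2 and EEP 3 (adjusted p = 0.0456).

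Fabp5, which carries fatty acids and retinoic acid, had 27.1, 8.56 and 4.91 CPM in EEP tissue and 157, 13.01 and 133 CPM in normal tissue and fell without EEP 1 (log2 -3.89 ± 0.81, adjusted p = 0.0262). Atp1b1, the beta subunit of the sodium pump, had 78.98, 22.2 and 27.7 CPM in EEP tissue and 196, 54.3 and 217 CPM in normal tissue (log2 -2.65 ± 0.54 without EEP 1, adjusted p = 0.0241). In Igfbp1, Aqp8, Fabp5 and Atp1b1 alike, normal 2 was the lowest normal library by a wide margin. The stage of the estrous cycle is not given for any library, and its part in these genes was not tested.

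In the TGF-beta list, Ltbp2, a latent TGF-beta binding protein of elastic fibers, had 3.78, 13.8 and 5.203 CPM in EEP tissue and 1.05, 1.001 and 1.92 CPM in normal tissue and rose without EEP 1 (log2 2.83 ± 0.67, adjusted p = 0.0456), and Inhba, the activin A subunit, had 11.2, 32.6 and 24.6 CPM in EEP tissue and 6.75, 5.11 and 6.43 CPM in normal tissue (log2 1.89 ± 0.56, adjusted p = 0.467). Neither overlapped. Tgfb2 had 100.6, 83.5 and 56.1 CPM in EEP tissue and 466, 67.97 and 285 CPM in normal tissue (log2 -1.77 ± 0.57, adjusted p = 0.498), normal 2 lying among the EEP libraries. Smo, the signal transducer of hedgehog, had 31.6, 23.1 and 36.7 CPM in EEP tissue and 133, 188 and 80.3 CPM in normal tissue, without overlap (log2 -2.14 ± 0.51, adjusted p = 0.393). Axin2, a feedback target of Wnt signalling, had 35.8, 147 and 93.4 CPM in EEP tissue and 23.3, 37.5 and 34.3 CPM in normal tissue (log2 1.53 ± 0.52, adjusted p = 0.547). Greb1, an estrogen-induced gene, had 32.2, 65.7 and 41.3 CPM in EEP tissue and 10.97, 14.4 and 22.3 CPM in normal tissue, again apart in every library (log2 1.55 ± 0.42, adjusted p = 0.443).

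Proliferation and stress genes gave no called member. Of 23 cell cycle genes, 20 were lower (median -0.57, and -0.96 without EEP 1) with none at an unadjusted p under 0.05, and their summed level was 159.8, 108 and 121 CPM in EEP tissue and 177, 205 and 137 CPM in normal tissue. The median with all libraries was 0.25 for immediate-early genes, -0.02 for heat shock genes and -0.06 for hypoxia and glycolysis genes, and without EEP 1 these were 0.09, -0.09 and -0.79. Fos, an early response gene, had 37.4, 26.3 and 7.804 CPM in EEP tissue and 5.48, 12.8 and 10.3 CPM in normal tissue (log2 1.34 ± 0.53, adjusted p = 0.621, and 0.85 without EEP 1), with EEP 3 inside the normal range.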

How the data were processed

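The labels' protocols state that uterine RNA (1000 ng) was made into QuantSeq 3′ mRNA libraries and sequenced as single 75 bp reads, and that Bowtie2, bedtools and edgeR were used, versions not given in the sources used here. The deposited gene table holds raw counts per gene, used here for all tests, and the authors' own fold ratios, p-values and q-values, quoted only as the authors' deposited table. Its information sheet names mRatBN7.2, whereas the submitters' processing notes name mm10, so the build used in alignment is uncertain.

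Genes were filtered with filterByExpr, scaled by TMM and tested with edgeR 4.0.16 (R 4.3.3, limma 3.58.1) in 1 quasi-likelihood fit of 4 groups with 3 libraries each, contrast EEP minus normal, with Benjamini-Hochberg adjustment over all genes and a threshold of 0.05. The fit was repeated without EEP 1. DESeq2 1.42.0 was an alternative. The steps were tested on simulated data. Levels are TMM-scaled CPM, computed here from the counts, and totals were 4866790 to 7615145 counts per library, so that 3 counts correspond to 0.177 to 0.867 CPM. Counting error is all that the intervals and floors include. The biological coefficient of variation was 59.2% with EEP 1 and 58.1% without it.

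The comparison, the gene lists and their members were chosen with earlier results of these data known. Genes named are, in each fit, up to 12 called per direction by smallest p (the 5 smallest where fewer than 5 were called) and up to 4 per list by smallest p, of which those with an unadjusted p under 0.05 were considered; others are said to be named after their values were seen. Of 952 listed symbols, 4 (Ighm, Mcpt1, Ovgp1 and Tnxb) matched no row. Promoter sequences are from RefSeq (GRCr8), matched by symbol. No 2 of the libraries held identical values. 1 gene that the rule would name is not reported here.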

Additional observations from a re-analysis of the deposited data

How the results depend on the processing

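The count of calls depended on the settings more than the fold changes did. With all libraries, 1 gene was called, against 1 with RLE size factors, 65 with DESeq2, 232 with no filter on low counts, 0 with a filter of 5 CPM in 3 libraries, 3 when EEP and normal libraries were fitted alone, 0 with mitochondrial genes removed, 2 with the mitochondrial share as a covariate and 1 at an adjusted p under 0.1. Leaving out 1 library at a time gave 0 to 200, the 200 being without EEP 1 and the next highest, 4, without normal 2. Without EEP 1, the 200 calls became 217 with RLE size factors, 794 with DESeq2, 694 with no filter, 251 with the stricter filter, 787 with EEP and normal alone, 170 with mitochondrial genes removed, 10 with the covariate and 391 at an adjusted p under 0.1. Leaving out a further library gave 6 (EEP 3) to 125 (EEP 2), with 19, 43 and 64 without normal 1, 2 and 3. Same-numbered libraries showed no clear pairing (r of their deviations 0.0484, 0.118 and -0.0956). With so few libraries and no animal stated, these values cannot decide whether same-numbered libraries share an animal. With the replicate numbers as a block the counts were 4 with all libraries and 107 without EEP 1. Among genes with an unadjusted p under 0.05, 63.5% were higher, against 66.4% with RLE size factors, 53.02% with the replicate block and 42.3% with the covariate. The difference in mitochondrial share, -0.618 percentage points, ranged from -14.0 to 14.7 when 1 library was left out, and was positive without normal 1 (2.51) and without EEP 1 (14.7). The log2 fold change of Cd2 ranged from -3.81 to 0.91, the last without normal 1. Of the named genes' other values, 1523 kept direction and side of the threshold and 121 passed it only under the alternative. The 7 that lost it were all of Spink5, which thus lost its call under 7 of 14 alternatives. No other named gene passed with all libraries, so no other had a call to lose. Causes of these changes were not tested. With 3 libraries a group and 1202525 nuclear counts in EEP 3, a gene that misses the threshold is not shown to be unchanged.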
